A study of Mus musculus with 2 samples.

Results

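Wnt signalling was examined through 10 genes in cultured mesenchyme of the mouse urogenital sinus (UGM cells), namely the ligand Wnt5a, the secreted antagonists Sfrp1, Sfrp2, Dkk2 and Dkk3, the signal carrier Ctnnb1 (beta-catenin), the nuclear effectors Lef1, Tcf7l1 and Tcf7l2, and the target gene Axin2. They were looked up by symbol, and are 10 of the 18193 genes that had a probe set naming that gene alone. Expression was measured on 2 microarrays, 1 per group, of UGM cells from male C57BL/6 mice at day 16. Both cultures grew in RPMI with the antibiotic Plasmocin (5 µg/ml) and 5% serum that had been stripped of its steroids with charcoal. The untreated culture received no hormone, and the T+E2 culture received testosterone (12 nM) together with estradiol-17 beta (120 pM). The question was which genes the hormone pair induces in this mesenchyme. Treatment lasted 72 h by the protocol and the characteristics, while the sample titles read 24 h. The labels describe the untreated cells as confluent and the T+E2 cells as nearly confluent before treatment, although the growth protocol gives 80% confluency for both. Density and hormone therefore cannot be told apart here, and testosterone and estradiol cannot be told apart from each other.

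Wnt proteins are secreted lipid-modified signals that bind Frizzled receptors together with Lrp or Ror co-receptors. In the canonical branch, receptor activation stops the destruction of beta-catenin, which enters the nucleus and works with Lef/Tcf factors at target genes such as Axin2, itself a negative regulator of the pathway. Wnt5a is best known for signalling through Ror2 without beta-catenin, and secreted Frizzled-related proteins (Sfrp) and Dickkopf proteins (Dkk) bind ligands or co-receptors outside the cell. In the urogenital sinus, Wnt signals pass between mesenchyme and the epithelium that forms prostatic buds.

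Values are given as intensities and as log2 differences, with the untreated value subtracted from that with T+E2. A gene counted as measured when at least 1 array reached a log2 of 5 (intensity 32), and values under this floor were set to 5 before a difference was formed. There was 1 array per group, so no difference can be set against the spread between cultures, no test was possible, and precision is limited by this number of arrays. On the untreated array 42.9% of the 45101 probe sets reached the floor, and 42.1% did so on the T+E2 array. The 10267 measured genes had a median difference of 0.07, with an interquartile range of -0.32 to 0.45. The 18 hybridization spike probe sets differed by -0.25 to 0.09. Mesenchymal markers were present, with 10 of 11 measured, among them Vim (0.10), Col1a1 (0.26) and Pdgfra (0.67). The proteoglycan genes Dcn (-0.58) and Lum (-1.81) were lower with T+E2. The 2 Dcn probe sets were far apart in size, at -0.58 and -4.43. The urogenital markers Hoxa13, Hoxd13 and Fgf10 lay below the floor on both arrays, while Tbx18, Osr1 and Bmp4 were measured.

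Among the members, 7 were measured, 6 of them on both arrays. Axin2, Dkk2 and Dkk3 lay near the lowest values of the table on both arrays, with intensities of no more than 5.01. Of the 7, Lef1 alone passed 2-fold on the higher side and none passed it on the lower side. Across all measured genes, 4.96% passed 2-fold upward and 4.01% downward. The differences of the measured members ran from -0.46 for Sfrp2 to 1.41 for Lef1, with a median of 0.41. At the level of single probe sets, 16 of the 19 measured ones were higher with T+E2 and 3 were lower, those 3 belonging to Sfrp1 and Sfrp2. Of all measured probe sets, 56.3% were higher. The 19 are not independent, since several belong to the same gene, and the Lef1 probe set passed the floor only through the T+E2 array, which fixed its direction. Of all measured genes, 55.8% were above 0. With the trend against gene span removed, described further on, 4 of the 7 members were above 0.

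**Figure D1:**
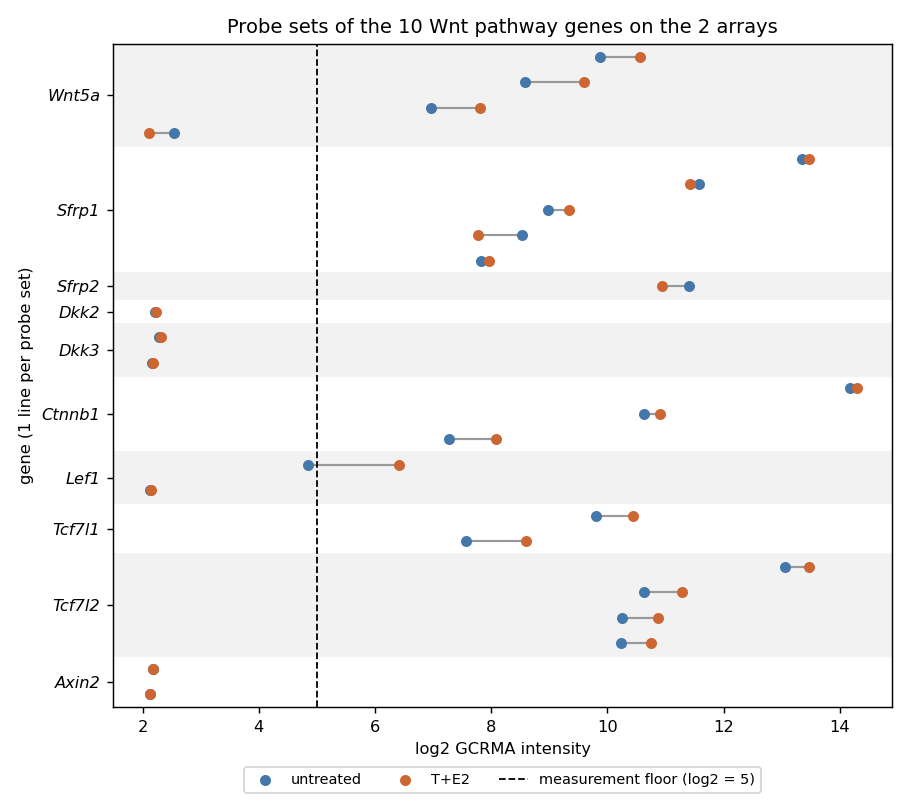
Log2 GCRMA intensity (horizontal axis) of every probe set of the 10 genes, 1 line per probe set, on the untreated array (blue) and the T+E2 array (orange), with the floor dashed. All measured probe sets of Wnt5a, Tcf7l1, Tcf7l2 and Ctnnb1 shift to the right, those of Sfrp1 go both ways, and Dkk2, Dkk3 and Axin2 sit to the left of the floor.

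Wnt5a, the ligand, had an intensity of 938 without hormone and 1514 with T+E2, which is 1.61-fold higher (log2 difference 0.69). The next brightest Wnt5a probe set read 384 and 773, and another 125 and 225. These 3 measured probe sets were all higher with T+E2, by 0.69 to 1.01. The remaining Wnt5a probe set read 5.81 and 4.29, under the floor. The Wnt5a difference was larger than that of 87.1% of measured genes. It nevertheless lay inside the central 95% of the 1698 genes within 0.5 log2 units of its mean level, which ran from -1.13 to 1.05. With the trend of differences against gene span removed, Wnt5a stood at 0.65.

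The other ligands give the setting for Wnt5a. Of 19 Wnt genes, only Wnt5a, Wnt5b and Wnt9a were measured. Wnt5b, the closest relative of Wnt5a, went the other way, from 952 to 497 (difference -0.94), and its 2 probe sets differed by -0.94 and -0.92. Wnt5b passed 2-fold on the lower side under each of 3 scalings, at -1.01 with centring, -1.001 with the level trend removed and -1.36 with the span trend removed. The Wnt5a difference exceeded that of Wnt5b by 1.63 log2 units. Wnt9a stood at 486 and 776 (0.68). Porcn, which attaches the lipid to Wnt proteins, and Wls, which carries them to the cell surface, were both lower with T+E2, at -0.42 and -0.52, and Wls moved to -0.94 without the span trend and to -0.30 when its probe sets were averaged.

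Sfrp1 binds Wnt proteins through a Frizzled-like domain. Its value was 10444 without hormone and 11322 with it, a difference of 0.12. The other 4 Sfrp1 probe sets differed by -0.14, 0.36, -0.76 and 0.14, so 3 of 5 were higher and 2 lower. The largest of these came from a probe set that read 372 and 220. No direction is given for Sfrp1, since the difference was -0.06 with the mean of its probe sets and -0.01 with the span trend removed.

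Sfrp2, of the same family, was the only measured member with a lower value with T+E2. Its single probe set read 2706 and 1970, a 1.37-fold lower value (difference -0.46). Of measured genes, 80.9% had a difference above this one, which lay within the -1.04 to 1.08 of genes at its level. The direction of Sfrp2 was the same under each scaling, from -0.53 with centring on the median difference to -0.37 with the span trend removed. Relative to Sfrp2, Wnt5a was 2.22-fold higher with T+E2 (1.15 log2 units), and relative to Sfrp1 it was 1.49-fold higher (0.57 log2 units).

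Dkk2, a Dickkopf protein that binds Lrp co-receptors, read 4.65 in untreated cells and 4.69 with T+E2. Dkk3, a divergent Dickkopf protein, read 4.87 and 5.01 on its brighter probe set and 4.47 and 4.50 on the other. Both genes were thus under the floor on both arrays, and no fold is given. Of the 14 secreted antagonists in the pathway list, 11 were under the floor on both arrays. Besides the 2 Sfrp genes, Frzb was measured, another Frizzled-related protein, at 463 and 778 (0.75).

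Ctnnb1 encodes beta-catenin, which also links cadherins to actin at cell junctions. It stood at 18435 and 20105, a difference of 0.13. The other 2 Ctnnb1 probe sets read 1584 and 1925, and 155 and 271, differing by 0.28 and 0.81. All 3 were higher with T+E2, by amounts that were larger on the dimmer probe sets, and their mean gave 0.40. The array measures transcript and says nothing about how much beta-catenin protein was stable or nuclear.

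Lef1, a nuclear partner of beta-catenin, had the largest difference of the 10 genes. Its brighter probe set read 28.6 in untreated cells, just under the floor, and 85.1 with T+E2. Against the floor, its level with T+E2 was at least 2.66-fold higher (log2 difference at least 1.41). Lef1 entered the measured genes through the T+E2 array alone. Its other probe set read 4.39 and 4.42, at background on both arrays. The difference exceeded that of 98.6% of all measured genes, but lay within the -1.65 to 1.88 of the 409 genes at its low level. The 2-fold call ended with a floor of 6 (0.41) and, narrowly, with the span trend removed (0.99), and with the mean of both probe sets Lef1 was not measured.

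Tcf7l1, which mainly represses targets when beta-catenin is absent, read 898 and 1394 (1.55-fold higher, difference 0.63). Its second probe set read 190 and 386 (1.02). Tcf7l2, which can activate or repress targets depending on its partners, read 8559 and 11383 (1.33-fold higher, difference 0.41). The other 3 Tcf7l2 probe sets differed by 0.66, 0.62 and 0.52. Every probe set of both genes was therefore higher with T+E2, and none of the main values reached 2-fold. Both genes are long, and with the span trend removed Tcf7l1 stood at 0.14 and Tcf7l2 at -0.088, so the direction of Tcf7l2 flipped.

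**Figure D2:**
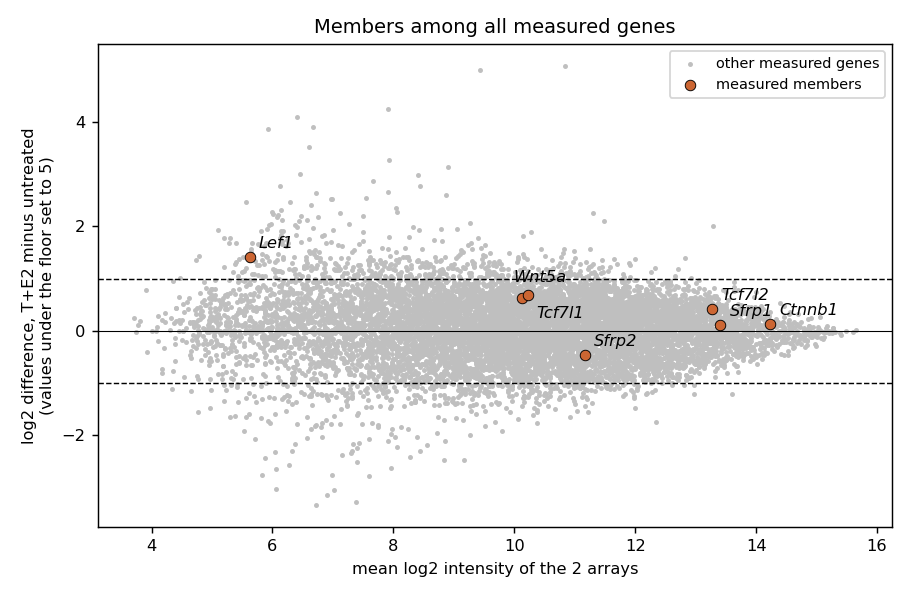
Log2 difference, T+E2 minus untreated (vertical axis), against mean log2 intensity (horizontal axis) for all measured genes (grey) and the 7 measured members (orange), with dashed lines at 2-fold. Lef1 alone lies past a dashed line, at a low level where the grey points are widely spread.

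The difference between the arrays was related to genomic span, the length of a gene from first to last base. In 20 bins of measured genes by span, the median difference went from -0.25 at a median span of 2.16 kb to 0.61 at 279 kb. The members cover much of that range, from Sfrp2 at 8.57 kb and Wnt5a at 22.9 kb to Lef1 at 114 kb, Tcf7l1 at 163 kb and Tcf7l2 at 192 kb. The 3 longest measured members are the 3 nuclear effectors. Subtracting the bin medians left Wnt5a (0.65), Lef1 (0.99) and Sfrp2 (-0.37) as the members farthest from 0. The remaining ones were Tcf7l1 (0.14), Ctnnb1 (0.09), Sfrp1 (-0.01) and Tcf7l2 (-0.088).

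**Figure D3:**
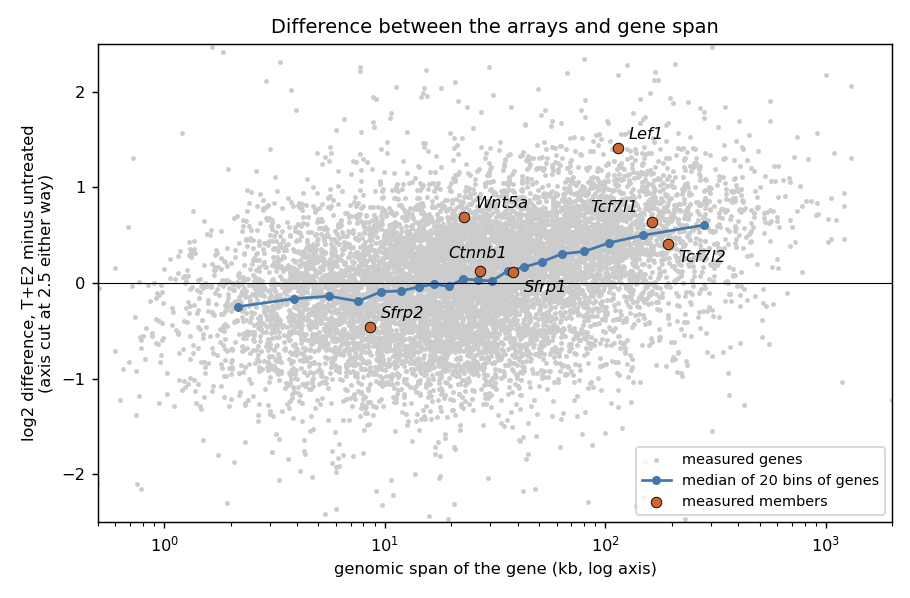
Log2 difference, T+E2 minus untreated (vertical axis), against genomic span in kb (horizontal log axis) for measured genes (grey), with the median of 20 bins as a blue line and the 7 measured members in orange. Tcf7l1 and Tcf7l2 lie near the line, while Wnt5a and Lef1 lie above it and Sfrp2 below it.

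Axin2, a direct transcriptional target of beta-catenin that serves as a reporter of canonical signalling in many tissues, read 4.51 in untreated cells and 4.53 with T+E2. Its second probe set read 4.35 and 4.37. Axin2 transcript was thus under the floor in both cultures, and a difference between them was not detectable. Among the other genes listed as targets, Nkd1, Nkd2 and Sp5 were also under the floor on both arrays.

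The promoters of Lef1 and Axin2 are shown because Lef1 was the member past 2-fold and Axin2 the target at background. Each run is the 250 bases before an annotated start, 5′ to 3′, from RefSeq for GRCm38.p6, plus strand, and the arrays did not measure these regions. Capitals mark CTTTG, the core bound by Lef/Tcf factors, and AGAACA, the half-site of androgen receptor elements, on either strand. The Lef1 window is chr3:131110047-131110296, the most upstream of 4 windows listed for that gene, and the Axin2 window is chr11:108920099-108920348.
Lef1: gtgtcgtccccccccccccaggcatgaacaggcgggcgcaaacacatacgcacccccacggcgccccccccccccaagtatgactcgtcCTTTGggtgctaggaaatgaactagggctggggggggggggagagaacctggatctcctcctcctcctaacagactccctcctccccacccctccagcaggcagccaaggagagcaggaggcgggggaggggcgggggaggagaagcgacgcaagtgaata
Axin2: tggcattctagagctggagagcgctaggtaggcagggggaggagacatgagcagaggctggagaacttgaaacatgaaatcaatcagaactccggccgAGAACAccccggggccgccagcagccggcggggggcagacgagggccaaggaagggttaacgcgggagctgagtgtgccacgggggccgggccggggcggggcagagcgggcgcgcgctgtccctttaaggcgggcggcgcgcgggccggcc

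The Lef1 window shown holds CTTTG once, starting 161 bases before the start, and no AGAACA, which is in 2 of the other 3 Lef1 windows. The Axin2 window holds AGAACA once, starting 152 bases before the start, and no CTTTG. Windows were listed for 7 members, 12 in all. CTTTG, on either strand, was in 8 of the 12 and in 48.6% of all 32851 promoter windows of this length. Of those 8, 4 are windows of Lef1, some of which overlap, and counted by gene CTTTG was in 4 of 7 members and in 52.2% of all genes. AGAACA was in 5 of 12 windows and in 16.1% of all, or in 4 of 7 members and 18.2% of all genes. The longer Lef/Tcf forms CTTTGAT and CTTTGAA, which contain the core, were in 0 of 12 member windows each, and in 3.21% and 4.46% of all. The full palindromes of androgen receptor elements (AGAACA, any 3 bases and its reverse complement) and of estrogen receptor elements (GGTCA, likewise) were also in 0 of 12, and in 0.00913% and 0.0639% of all. A match of letters is not a bound site, and its absence says only that these letters are not in this window.

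The rest of the pathway was described from a list of 115 other Wnt genes in 10 roles, of which 113 were on the array and 73 measured. Of those 73, 5 passed 2-fold upward, 1 passed it downward and 67 did neither. The 8.22% past 2-fold compares with 8.97% of all measured genes in either direction. The median of the 73 was 0.43, against 0.07 over all measured genes, and 0.23 with the span trend removed. In the list with the members included, 3 genes were 2-fold higher and 4 lower once the span trend was removed, against 6 and 1 without that step.

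Receptors for Wnt5a and other ligands were mostly present. Ror1, a relative of the Wnt5a receptor Ror2, read 60.8 and 218 (3.58-fold higher), and Ror2 itself differed by 0.66. Only 1 of the 3 Ror1 probe sets was measured, and its difference lay within the -1.76 to 1.85 of genes at its level. Of 10 Frizzled genes 8 were measured, and Fzd5 was 2.42-fold higher, from 1405 to 3403, on 1 of its 2 probe sets, with the other under the floor. Fzd1 (0.20), Fzd2 (0.41), Fzd4 (0.34), Fzd6 (0.43), Fzd7 (0.50) and Fzd8 (0.41) were under 2-fold. Fzd3 was at -0.92, from 62.6 to 33.0, near the floor. Another Fzd3 probe set went the other way, from 9.64 to 32.4, a difference of at least 0.02 against the floor. With the span trend removed Fzd5 stood at 1.47, Ror1 at 1.24, Ror2 at 0.17 and Fzd3 at -1.23. In the R-spondin arm, which controls the number of Frizzled receptors at the surface, 4 of 9 genes were measured and none reached 2-fold. Of all measured genes 8.97% passed 2-fold in either direction, and 4 genes are too few to differ from that. The ubiquitin ligase gene Znrf3 was at 0.87 and the ligand gene Rspo3 at -0.54. With the span trend removed they stood at 0.37 and -0.87.

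Lef/Tcf factors repress targets through Groucho corepressors of the Tle family, and these differed in both directions. Tle3 was 2.48-fold higher with T+E2, and its 2 measured probe sets differed by 1.31 each. With all 4 Tle3 probe sets averaged, including those under the floor, it stood at 0.66. Tle4 was 2.47-fold higher, from 550 to 1357, and stood at 0.80 with the span trend removed. Tle2 was 3.51-fold lower, from 1368 to 390, on its single probe set. Tle1 stood at 0.46 and the short family member Tle5 at 0.02. The other Tle1 probe set read 195 and 194 (-0.007), and with the span trend removed Tle1 stood at 0.13. Of the 4 full-length genes Tle1 to Tle4, 2 were thus 2-fold higher and 1 lower, where 8.97% of all measured genes passed 2-fold in either direction. The Tle4 call rested on 1 of 3 probe sets, the others being under the floor, and ended with the span trend removed. The main values of Tcf7l1 and Tcf7l2 were under 2-fold, although the second Tcf7l1 probe set differed by 1.02.

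**Figure D4:**
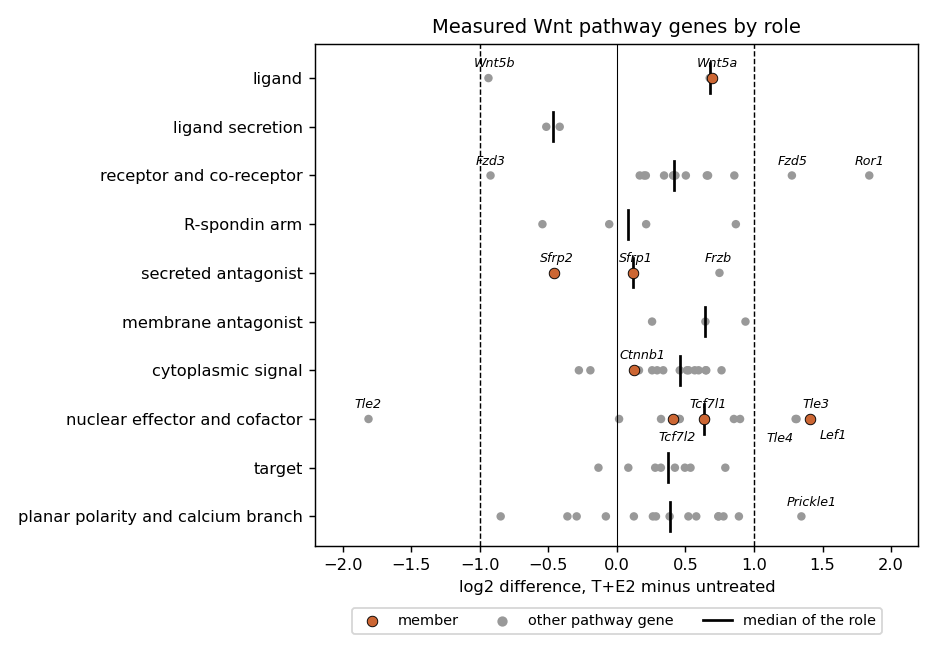
Log2 difference, T+E2 minus untreated (horizontal axis), of each measured gene of the Wnt pathway list by role, with members in orange, other genes in grey, the median of each role as a black bar and dashed lines at 2-fold. Lef1 lies to the right of the 2-fold line beside Tle3 and Tle4, while Tle2 lies far to the left.

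Markers of other cell types were checked beside these values. Of 15 epithelial marker genes with a probe set, 3 were measured, and Epcam, Krt5, Krt8, Krt14, Krt18 and Krt19 were under the floor on both arrays. The summed intensity of the epithelial list was 4132 in untreated cells and 6485 with T+E2. Its measured genes were Esrp2 (3782 and 5889), Trp63 (255 and 352) and the cadherin gene Cdh1 (41.4 and 190), whose protein binds beta-catenin. Of the endothelial genes 1 of 7 was measured, Tek (0.20), and of the leukocyte genes 2 of 7, Lyz2 (-1.53) and Cd14 (0.17). Of the smooth muscle genes 3 of 7 were measured, namely Acta2 (0.13), Tagln (2.69-fold lower) and Lmod1 (3.15-fold higher). The 2 measured Acta2 probe sets differed by 0.13 and 1.53. The neural and glial list had 1 of 3 measured, S100b (-0.16, with its other probe set at 0.03). The part of these cell types in the values of the 10 genes was not tested, and fewer cells of a type cannot be told apart from less RNA per cell.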

How the data were processed

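The authors deposited GCRMA intensity values on a linear scale, 1 per probe set and array, per the submitters' processing notes, which name GCRMA. The GCRMA version is not stated there. The method corrects background by probe sequence and normalizes between arrays, and it gives unhybridized probe sets similar low values. The log2 of each intensity was taken here, with no further scaling. Of 45101 probe sets, 34945 named 1 gene, 932 several (left out), 9160 were not listed and 64 were controls. Symbols were updated through gene identifiers to RefSeq (GRCm38.p6). A gene took the value of its probe set with the highest mean log2, and a floor of 5 was applied before differences were formed. No test was made, with 1 array per group. The 2-fold count and the span correction were tried on simulated data with planted differences and a planted trend, for genes well above the floor. That checks the calculation and not the calls in these data, and it leaves low values such as those of Lef1 untested. The named genes are the 10 members, the 2-fold or otherwise largest gene of each pathway role, and all measured ligands, Frizzled genes and secreted antagonists. Other pathway genes and markers given with values (Ror2, Rspo3, Porcn, Tle1, Tle5, Nfatc2, Ccnd1 and Myc among them) were chosen after their values were seen. The members and lists were chosen with earlier results of these data known. Alternatives were the floor, the probe set rule and 3 scalings: centring on the median, a lowess fit (fraction 0.3) on level, and subtraction of the median in 20 span bins. Python 3.11.15, pandas 2.3.3 and statsmodels 0.14.6 were used.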

Additional observations from a re-analysis of the deposited data

How the results depend on the processing

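No paired analysis was possible because each group has 1 array. A value was taken as unmoved when it changed by less than 0.22, the typical SD among a gene's probe sets (median over genes), and a count when it stayed within 1.5 times. Of 111 values under 8 alternatives, 95 were unmoved. This share is no measure of robustness, because many values could not move. A change of floor leaves genes far above it as they were, and centring shifts every gene by 0.07, under the limit. Removal of the span trend moved 7 values and left 7 unmoved. The sign changed in 3 values, which belong to Sfrp1 and Tcf7l2. With the span trend removed, Lef1 stood at 0.99, Tcf7l1 at 0.14 and Tcf7l2 at -0.088. The same step gave 0 members 2-fold higher, 3 Wnt pathway genes higher and 4 lower, and 287 of all genes higher against 509. With the mean of all probe sets, which draws in those at background, Ctnnb1 stood at 0.40, and 0 members, 0 Wnt pathway genes and 315 of all genes were 2-fold higher. A floor of 6 put Lef1 at 0.41 and left 0 members 2-fold higher. Wnt pathway genes 2-fold lower numbered 2 with centring and 3 with the level trend removed, against 1. Without a floor the median of the pathway list was 0.17. Calls over all genes were 55.3% on the higher side, but 44.0% with centring, 43.1% with the level trend removed, 38.9% without the span trend and 44.1% when probe sets were averaged. The cause was not tested. Signal over background limits Axin2, Dkk2, Dkk3 and the untreated value of Lef1.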

Other observations

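Among genes of the planar polarity and calcium branch, which Wnt5a can engage, 15 of 18 were measured. Their median was 0.38, or 0.06 with the span trend removed. Of the 15, 1 was 2-fold higher and 0 lower (6.67%), against 8.97% of all measured genes in either direction. The higher one was Prickle1, a cytoplasmic polarity protein, which read 539 and 1370 (2.54-fold) and stood at 0.92 with the span trend removed. Only 1 of the 3 Prickle1 probe sets was measured. Nfatc2, a calcium-responsive transcription factor, was at -0.85, from 1386 to 770, and passed 2-fold on the lower side with the span trend removed (-1.35). The Nfatc2 value rested on 1 of 6 probe sets, the others being under the floor. Its relatives went both ways, with Nfatc1 and Nfatc3 at 0.74 each and Nfatc4 at -0.29. With the span trend removed these 3 stood at 0.32, 0.41 and -0.20. Of 15 cytoplasmic genes including Ctnnb1 none reached 2-fold, where 8.97% of all measured genes did in either direction. Of the 15, 13 were above 0, against 55.8% of all measured genes. With the span trend removed 10 were above 0, and their median went from 0.46 to 0.15. Apc, a scaffold of the complex that destroys beta-catenin, stood at 0.76, and at 0.34 with that trend removed. Among membrane antagonists, Apcdd1 stood at 0.94. Only 2 of the 6 Apcdd1 probe sets were measured. The dimmer one read 31.2 and 43.6, a difference of at least 0.45 against the floor.

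Of 8 measured target genes, 7 were above 0 and none reached 2-fold, while 55.8% of all measured genes were above 0 and 8.97% passed 2-fold. The largest was Tbx3 (0.79), a transcription factor, at 730 and 1264. Only 2 of the 5 Tbx3 probe sets were measured, and the dimmer one passed 2-fold, at 409 and 825 (1.01). Ccnd1, a cyclin of the G1 phase, differed by 0.42 and Myc by -0.13. These genes also answer to signals other than Wnt.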
